A study of Mus musculus with 6 samples.

Results

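Collagen genes were taken as every row of the deposited count table whose symbol is Col, a number, a and a number, which gave 44 of 25031 genes. Each was assigned to a structural class: 11 fibrillar, 6 basement membrane, 6 beaded, 4 transmembrane, 9 fibril-associated, 2 multiplexin, 3 hexagonal network and 1 anchoring fibril collagen, and 2 others. The libraries came from kidneys of male mice, wild type (WT) C57BL/6, which were 7 to 8 weeks old, and all animals had bilateral renal ischemia for 23 min at 37 °C followed by reperfusion. In 3 libraries the animals received (+)CePPy, positively charged cerium-doped polypyrrole nanoparticles, at 5 mg/kg intravenously right after the injury, and in the other 3 they received the saline vehicle. How long after injury the kidneys were taken is not stated, and uninjured kidneys were not analysed here. Nothing in the labels ties a library to its own animal, so p-values measure the spread between libraries, which may be technical.

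Collagens are secreted or membrane proteins built from chains that wind into a triple helix. Fibrillar collagens bear the load of the interstitium and are the main component of kidney scars, whereas type IV collagen forms the sheet that underlies tubules, glomerular capillaries and vessels. Beaded type VI collagen forms microfibrils around cells, fibril-associated collagens decorate the surface of fibrils, and transmembrane collagens sit in the cell membrane with a collagenous part outside the cell.

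Total counts per library ranged from 29762157 to 37415213, so that 1 count was worth between 0.0266 and 0.0333 CPM (counts scaled to a common library size, with sizes corrected by the TMM method of edgeR). A count of 3, taken as the floor of detection, stood for 0.0798 to 0.0999 CPM. CePPy library 2 lay nearest the vehicle libraries on the first principal component of all genes, at 3.8 against 56.8 and 16 for CePPy libraries 1 and 3 and -29.8 to -18.1 for vehicle. Among all 15416 genes that passed the filter on low counts, edgeR's quasi-likelihood test called 1 gene at an adjusted p under 0.05, which was no collagen.

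Collagen mRNA made up a similar share of the RNA in both groups, and no collagen gene passed the test. Collagens took 0.291, 0.335 and 0.362% of all counts in CePPy libraries 1 to 3, against 0.377, 0.309 and 0.323% in vehicle libraries 1 to 3. Of the 44 genes, Col9a1 and Col22a1 were at 0 in all libraries, and 31 passed the filter on low counts. edgeR called 0 of these 31 at an adjusted p under 0.05, against 0.00649% of all genes tested, and the lowest adjusted p of a collagen was 0.117. At an unadjusted p under 0.05 there were 9 collagens, or 29.0% against 19.0% of all genes tested. Of these, 5 were higher in CePPy kidneys, against 9.65% of all genes, and 4 were lower, against 9.37% of all genes. DESeq2 called 2 of 30 collagens with an adjusted p, Col27a1 and Col6a3, both higher, against 6.63% of all genes it tested in either direction and 3.42% in that direction.

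The direction of the collagens was mixed. The log2 fold change, CePPy over vehicle, was above 0 for 23 of 31 collagens (74.2%), against 50.5% of all genes tested, and its median was 0.17, against 0.00 over all genes. Without CePPy library 3 the collagen median was 0.09, the lowest value with a library left out, and the highest was 0.231. In 10 of the 31 (32.3%) the CePPy and vehicle libraries did not overlap, against 26.3% of all genes tested. All CePPy libraries were above all vehicle libraries for 5 of them, Col27a1, Col11a2, Col6a3, Col14a1 and Col15a1, against 12.3% of all genes. All CePPy libraries were below all vehicle libraries for the other 5, Col4a1, Col4a2, Col18a1, Col5a3 and Col13a1, against 14.0% of all genes. In bulk RNA, fewer cells of a type and less RNA per cell cannot be told apart.

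**Figure D1:**
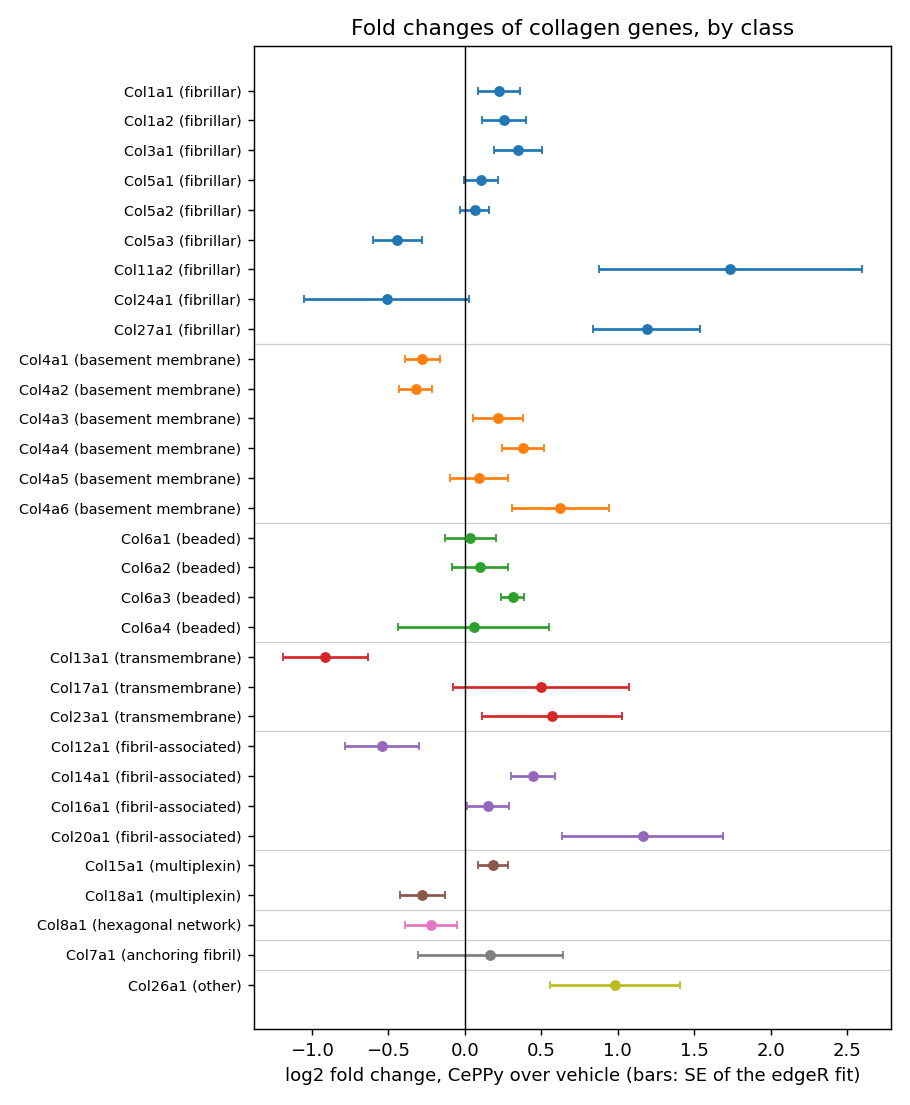
Log2 fold change, CePPy over vehicle, of the 31 collagen genes that passed the filter on low counts, by class, with bars of 1 SE derived from edgeR's test statistic (3 libraries per group). The values run from -0.91 for Col13a1 to 1.74 for Col11a2, and no gene reached an adjusted p under 0.05.

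Col4a1 had the highest level of any collagen in both groups, and a few genes held most of the collagen counts. Levels are compared between genes as TPM, a unit scaled within each library in which counts are divided by the length of all exons joined. Col4a1 and Col4a2, the chains of the type IV network found in nearly all basement membranes, had means of 207 and 138 TPM in CePPy kidneys, against 259 and 178 TPM in vehicle kidneys. Col18a1, a basement membrane collagen whose cleaved end is endostatin, had a mean of 126 TPM in CePPy kidneys and 157 TPM in vehicle kidneys. Among fibrillar genes, mean levels were 113 and 91.8 TPM for Col3a1 and 102 and 91.2 TPM for Col1a1 in CePPy and vehicle kidneys. These genes and Col1a2, at 64.1 TPM in CePPy and 55.7 TPM in vehicle kidneys, together held 77.6% of all collagen counts. With the longest transcript in place of all exons, Col4a1 stayed highest, but Col3a1 came to 167 TPM in CePPy and 134 TPM in vehicle kidneys and Col1a2 to 125 TPM in CePPy and 107 TPM in vehicle kidneys. The order below Col4a1 therefore depends on the length used.

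**Figure D2:**
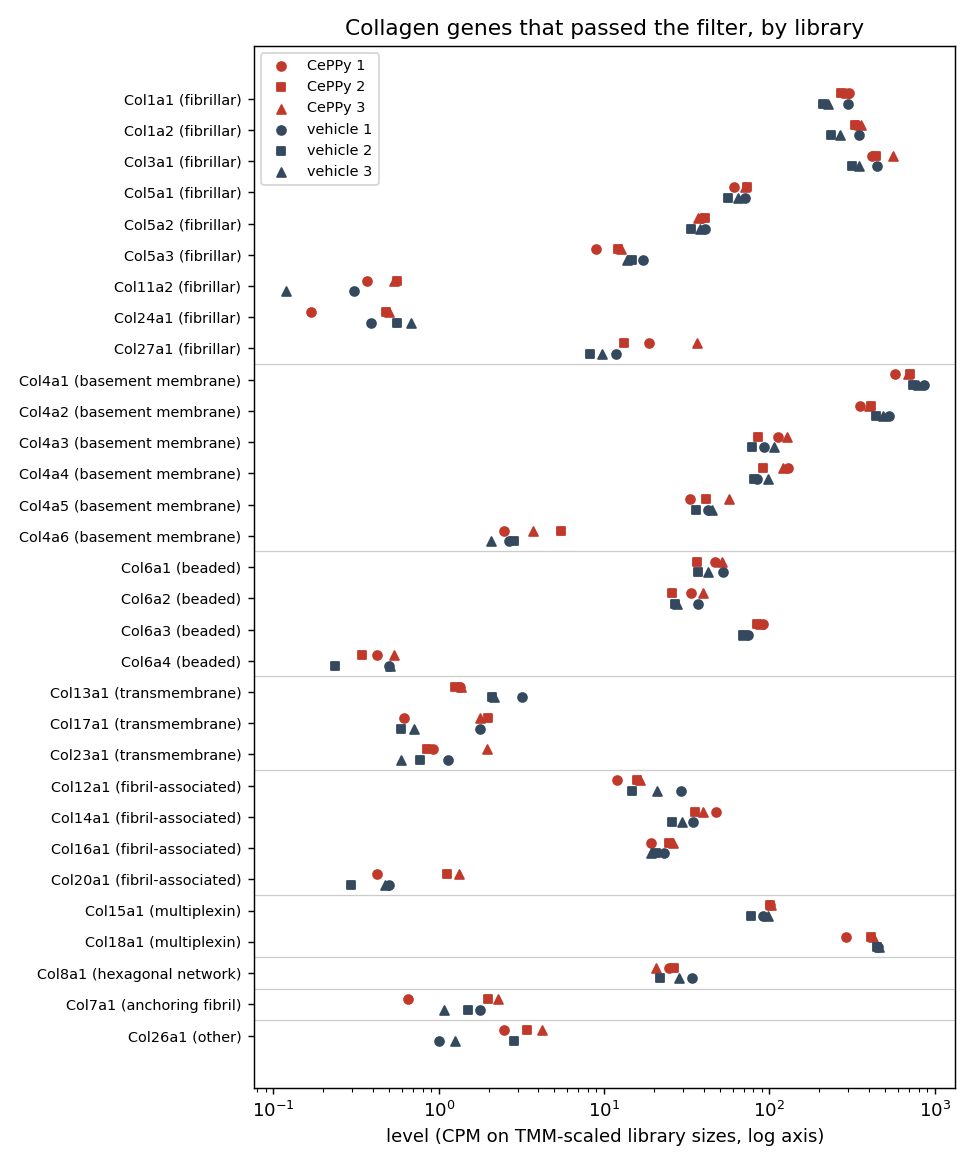
Level of the 31 tested collagen genes in each library, in CPM on a log axis, with CePPy libraries in red above vehicle libraries in blue and one marker shape per replicate number. Levels span from below 1 CPM for Col11a2 and Col6a4 to 858 CPM for Col4a1, and the count of 0 for Col11a2 in vehicle library 2 cannot be drawn on this axis.

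For the fibrillar collagens, the 3 major interstitial genes had higher means in CePPy kidneys, with overlapping libraries. Col3a1 (chr1:45311538-45349706, plus strand), the chain of type III collagen of vessels and reticular fibers, had 418, 441 and 558 CPM in CePPy libraries 1 to 3, against 447, 318 and 348 CPM in vehicle libraries 1 to 3. Vehicle library 1 lay above both CePPy library 1 and CePPy library 2, so the groups overlapped (log2 fold change 0.35, SE 0.16, edgeR adjusted p = 0.284). Col3a1 shares 141 bases of exon with Gm47302 on the same strand, over which reads cannot be told apart. Col1a2 (chr6:4504814-4541544, plus strand), the second chain of type I collagen, had 336, 328 and 358 CPM in CePPy kidneys and 350.4, 235 and 269 CPM in vehicle kidneys (log2 fold change 0.26, SE 0.14, edgeR adjusted p = 0.365). Its partner Col1a1 (chr11:94936224-94953042, plus strand) had 304, 269.6 and 291 CPM in CePPy kidneys, against 299, 212 and 227 CPM in vehicle kidneys (log2 fold change 0.23, SE 0.14, edgeR adjusted p = 0.397). For all 3 genes vehicle library 1 was the highest vehicle library and vehicle library 2 the lowest, and for Col1a1 and Col1a2 the difference between the group means was smaller than the SD of the vehicle libraries. With vehicle library 1 left out the log2 fold changes were 0.502 for Col3a1, 0.433 for Col1a2 and 0.388 for Col1a1, and with vehicle library 2 left out they were 0.249, 0.139 and 0.13 for the same genes. Without CePPy library 3 that of Col3a1 was 0.215. The means of Col1a1 were 288 ± 17.1 CPM in CePPy and 246 ± 46.4 CPM in vehicle kidneys (SD, n = 3 each).

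Both chains of type I collagen kept nearly the same proportion in every library. Counts per base of Col1a1 over Col1a2 were 1.71, 1.56 and 1.54 in CePPy libraries and 1.62, 1.71 and 1.6 in vehicle libraries, when all exons are joined. With the longest transcript the same ratio was 0.814, 0.741 and 0.732 in CePPy libraries and 0.770, 0.815 and 0.762 in vehicle libraries. The groups overlapped under both lengths, and the size of the ratio, unlike its overlap between groups, depends on the length chosen.

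Col27a1 had the second largest fold of the tested collagens after Col11a2, and both are fibrillar genes known mainly from cartilage. Col27a1 (chr4:63214004-63334991, plus strand) had 18.6, 13.2 and 36.3 CPM in CePPy libraries 1 to 3, against 11.9, 8.18 and 9.77 CPM in vehicle libraries 1 to 3. Every CePPy library was above every vehicle library, with CePPy library 3 far above the others. The means were 22.7 ± 12.1 CPM in CePPy and 9.94 ± 1.85 CPM in vehicle kidneys (SD, n = 3 each), a 2.28-fold difference (log2 fold change 1.19, SE 0.35, edgeR adjusted p = 0.149). Without CePPy library 3 the log2 fold change was 0.68, and without CePPy library 2 it was 1.46 with an edgeR adjusted p = 0.0379. In that fit without CePPy library 2, edgeR called 2 of 33 collagens tested, Col27a1 and Col4a4, both higher, against 5.17% of all genes tested in either direction and 2.98% in that direction. DESeq2 gave Col27a1 a log2 fold change of 1.19 and an adjusted p = 0.00892. Genes that define cartilage and bone were at or near 0 in all libraries: Acan, Bglap and Ibsp had no count, and the summed level of the 4 listed markers was 0 to 0.106 CPM in CePPy libraries and 0 to 0.0589 CPM in vehicle libraries.

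The remaining fibrillar chains ranged widely in level, and none of those tested passed the threshold. Col5a3 (chr9:20770050-20815067, minus strand), a chain of the type V collagen that helps start fibrils, had 8.95, 12.1 and 12.6 CPM in CePPy libraries, against 17.1, 14.8 and 13.8 CPM in vehicle libraries. All CePPy libraries were below all vehicle libraries (log2 fold change -0.44, SE 0.16, edgeR adjusted p = 0.203). The more abundant type V chains differed less, with log2 fold changes of 0.11 for Col5a1 and 0.07 for Col5a2, and levels between 33.4 and 73.1 CPM over both genes. Col11a2 had 0.366, 0.558 and 0.533 CPM in CePPy libraries and 0.306, 0 and 0.119 CPM in vehicle libraries, with no count in vehicle library 2 (log2 fold change 1.74, SE 0.86, edgeR adjusted p = 0.315). Col24a1 stayed at or below 0.683 CPM in every library. Col2a1 and Col11a1, both cartilage collagens, were too low to be tested, at no more than 0.118 CPM in any library.

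Of the basement membrane genes, the widespread pair Col4a1 and Col4a2 was lower in every CePPy library than in any vehicle library, although neither passed the test. Col4a1 (chr8:11198423-11312826, minus strand) had 574, 709.8 and 689 CPM in CePPy libraries 1 to 3, against 858, 739 and 794 CPM in vehicle libraries 1 to 3. The means were 658 ± 73.04 CPM in CePPy and 797 ± 59.2 CPM in vehicle kidneys (SD, n = 3 each; log2 fold change -0.28, SE 0.11, edgeR adjusted p = 0.243). Col4a2 (chr8:11312805-11449287, plus strand) had 353, 413 and 401 CPM in CePPy libraries, against 528, 443 and 486 CPM in vehicle libraries (log2 fold change -0.32, SE 0.10, edgeR adjusted p = 0.172). For both genes CePPy library 1 was the lowest library and vehicle library 1 the highest, and CePPy library 2 lay closest to the vehicle values. The ratio of counts per base of Col4a1 over Col4a2 was 1.44, 1.52 and 1.52 in CePPy libraries and 1.44, 1.48 and 1.45 in vehicle libraries, with overlap between the groups. The 5 smooth muscle and myofibroblast markers summed to 257, 292 and 318 CPM in CePPy libraries, against 560.3, 446 and 393 CPM in vehicle libraries, most of it from Acta2 and Tagln. Those 2 genes were lower in every CePPy library, whereas Des, Myh11 and Cnn1 overlapped between groups with log2 fold changes of -0.15, -0.08 and -0.47, and none of the 5 passed edgeR's test. None was at 0 in all libraries, and their part in the type IV values was not tested. The sums of the 7 endothelial markers overlapped, at 618, 589 and 613 CPM in CePPy libraries and 663, 624 and 584 CPM in vehicle libraries. Their fold was above 0 for 2 and below 0 for 5. Only Tie1 did not overlap and was higher in every CePPy library (log2 fold change 0.19, edgeR adjusted p = 0.225), against 12.3% of all genes tested.

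Col4a1 and Col4a2 lie head to head on chromosome 8 and their first exons share 22 bases on opposite strands, so reads over that stretch cannot be assigned to either gene if strand was not used in counting. The chains Col4a3 and Col4a4 lie head to head on chromosome 1 with 71 bases between them, and Col4a5 and Col4a6 on the X chromosome with 1308 bases between them. Promoter windows of 300 bases, 250 before and 50 from the start of the gene, are shown for 3 of these genes, picked by name. The folds were known when they were picked. Each starts within or next to the start region of a partner chain whose fold had the same sign. Col4a5 and Col4a6 also had folds of the same sign and are not shown. The sequences are from RefSeq on GRCm38.p6, written 5′ to 3′ on the strand of the gene, with matches on either strand in capitals. The motifs searched were the CCAAT box (CCAAT), the GC box (GGGCGG), the TATA box (TATAAA) and the AP-1 site (TGANTCA, where N is any base), and no 2 matches overlap in the windows shown.
Col4a1 (chr8:11312777-11313076, minus strand): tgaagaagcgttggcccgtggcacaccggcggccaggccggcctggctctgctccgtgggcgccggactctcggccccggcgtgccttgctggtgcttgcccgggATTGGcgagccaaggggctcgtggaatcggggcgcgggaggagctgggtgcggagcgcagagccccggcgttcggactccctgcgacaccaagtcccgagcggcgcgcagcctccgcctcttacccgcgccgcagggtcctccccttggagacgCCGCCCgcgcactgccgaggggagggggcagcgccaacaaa
Col4a2 (chr8:11312555-11312854, plus strand): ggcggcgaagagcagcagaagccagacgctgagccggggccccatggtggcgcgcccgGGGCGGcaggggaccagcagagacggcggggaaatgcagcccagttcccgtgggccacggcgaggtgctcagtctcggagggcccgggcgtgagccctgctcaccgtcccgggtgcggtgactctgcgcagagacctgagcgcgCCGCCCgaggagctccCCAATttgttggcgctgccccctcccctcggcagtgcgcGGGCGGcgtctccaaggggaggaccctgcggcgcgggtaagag
Col4a4 (chr1:82586800-82587099, minus strand): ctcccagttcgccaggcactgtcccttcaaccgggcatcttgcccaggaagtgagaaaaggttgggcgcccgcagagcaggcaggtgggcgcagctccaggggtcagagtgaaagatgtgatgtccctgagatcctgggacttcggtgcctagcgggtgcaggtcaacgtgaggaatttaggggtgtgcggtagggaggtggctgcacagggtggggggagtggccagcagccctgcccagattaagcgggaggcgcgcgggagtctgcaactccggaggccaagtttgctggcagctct

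The Col4a1 and Col4a2 windows overlap by 78 bases, and 1 match, to GGGCGG, is the same site in both. Col4a1 holds 1 match to CCAAT and 1 to GGGCGG, Col4a2 holds 1 to CCAAT and 3 to GGGCGG, and Col4a4 holds no match to any of the 4 motifs. RefSeq windows matched 35 of the 44 collagen genes, with 38 windows. GGGCGG occurred in 23 of these (60.5%), against 35.7% of all 32851 promoter windows. CCAAT occurred in 34.2% of collagen windows and 37.4% of all windows, TATAAA in 13.2% and 13.6%, and TGANTCA in 2.63% and 7.81%. A match describes letters in the window and is not a measured binding site. Col1a1 and Col4a3 had no window in the table.

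Col4a3, Col4a4 and Col4a5, known as chains of the mature glomerular basement membrane, had higher means in CePPy kidneys. The libraries are bulk kidney RNA, so these values cannot be assigned to the glomerulus. Col4a3 (chr1:82586921-82722059, plus strand), which with Col4a4 and Col4a5 is mutated in Alport syndrome, had 112, 85.4 and 128 CPM in CePPy libraries, against 93.3, 79.1 and 107 CPM in vehicle libraries (log2 fold change 0.22, SE 0.16, edgeR adjusted p = 0.497). The groups overlapped, and 563 bases of its exons are shared with C430014B12Rik on the opposite strand. Col4a4 (chr1:82448423-82586849, minus strand) had 129, 91.9 and 120.5 CPM in CePPy libraries and 83.8, 80.8 and 97.9 CPM in vehicle libraries (log2 fold change 0.38, SE 0.14, edgeR adjusted p = 0.203). CePPy library 2 lay below vehicle library 3, and without CePPy library 2 the log2 fold change was 0.51 with an edgeR adjusted p = 0.0434. Col4a5 had a log2 fold change of 0.09 and Col4a6, a chain of Bowman's capsule and some tubules, of 0.62, with adjusted p = 0.821 and 0.326 in edgeR. Podocytes are known to make the Col4a3, Col4a4 and Col4a5 chains of the glomerulus. The 6 podocyte markers summed to 401, 369.5 and 370.5 CPM in CePPy libraries and 411, 376 and 434 CPM in vehicle libraries. Of the podocyte folds, 2 were above 0 and 4 below 0. The libraries did not overlap for 2 podocyte markers, both lower, against 14.0% of all genes tested. The 6 proximal tubule markers summed to 7729, 3448 and 5094 CPM in CePPy libraries and 2931, 2966 and 3101 CPM in vehicle libraries, with Slc34a1 the largest contributor in each library. Their fold was above 0 for 6 of 6, and the libraries did not overlap for 3 of 6, Slc34a1, Aqp1 and Slc5a2, all higher, against 12.3% of all genes tested. The part of either list in these chains was not tested, and no marker of either was at 0 in all libraries.

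Within the basement membrane class, the proportion of Col4a1 and Col4a2 to Col4a3, Col4a4 and Col4a5 was lower in CePPy kidneys when all exons are joined. Counts per base of Col4a1 and Col4a2 over those of Col4a3, Col4a4 and Col4a5 were 4.6, 6.74 and 4.68 in CePPy libraries, against 8.26, 7.94 and 6.76 in vehicle libraries. CePPy library 2 was just below the lowest vehicle library. With the longest transcripts the ratios were 4.58, 6.74 and 4.67 in CePPy libraries and 8.24, 7.94 and 6.73 in vehicle libraries, and the groups overlapped. The ratio of interstitial to basement membrane chains, Col1a1, Col1a2 and Col3a1 over Col4a1 and Col4a2, was 0.890, 0.714 and 0.849 in CePPy libraries, against 0.613, 0.505 and 0.510 in vehicle libraries. All CePPy libraries were above all vehicle libraries, with means of 0.818 ± 0.0924 in CePPy and 0.542 ± 0.0611 in vehicle kidneys (SD, n = 3 each). With the longest transcripts this ratio was 1.34, 1.09 and 1.3 in CePPy and 0.928, 0.760 and 0.773 in vehicle libraries. Both ratios were chosen after the values were seen and are given without a test.

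**Figure D3:**
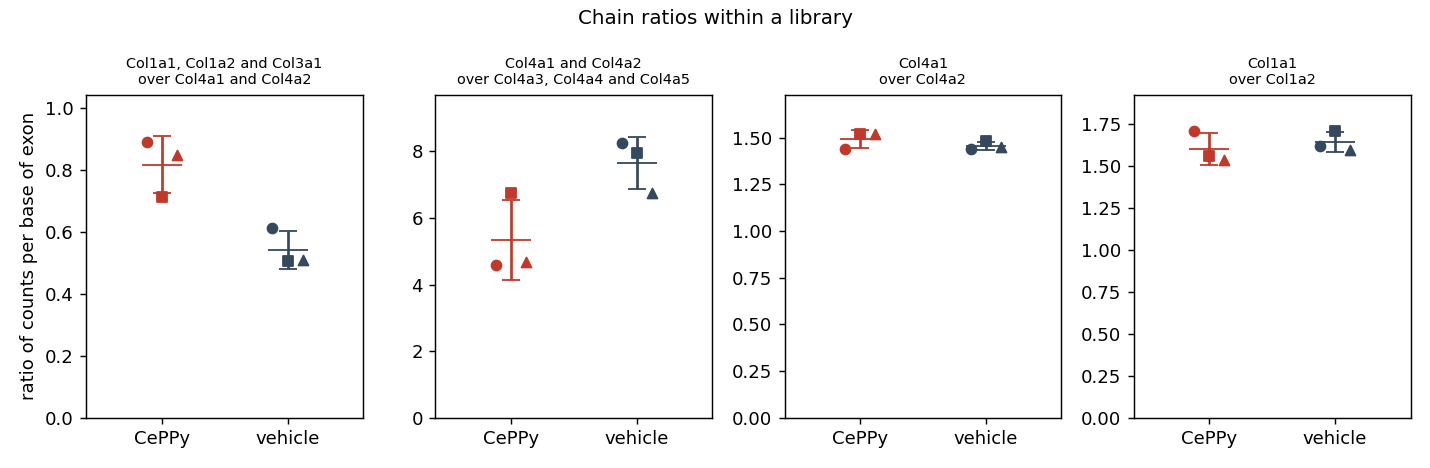
Ratios of counts per base of exon between collagen chains in each library, with CePPy left of vehicle, bars of mean ± SD (n = 3 each) and the vertical axis from 0; circles, squares and triangles are replicates 1, 2 and 3. The ratio of interstitial over type IV chains is 0.714 or more in every CePPy library and 0.613 or less in every vehicle library, whereas Col4a1 over Col4a2 and Col1a1 over Col1a2 overlap.

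Among beaded collagens, Col6a3 was higher in every CePPy library than in any vehicle library, without passing the test. Col6a3 (chr1:90765923-90843971, minus strand), the largest chain of type VI collagen, had 91.95, 84.1 and 88.2 CPM in CePPy libraries 1 to 3, against 74.5, 68.95 and 69.3 CPM in vehicle libraries 1 to 3. The libraries of each group lay close together, with a gap between the groups. The means were 88.1 ± 3.94 CPM in CePPy and 70.9 ± 3.08 CPM in vehicle kidneys (SD, n = 3 each; log2 fold change 0.31, SE 0.07, edgeR adjusted p = 0.117), the lowest p of the tested collagens. With each library left out in turn its log2 fold change stayed between 0.28 and 0.35, and DESeq2 gave it an adjusted p = 0.0178.

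Its partner chains overlapped between groups. Col6a1 had 47.2, 36.5 and 52.04 CPM in CePPy libraries and 52.5, 36.99 and 42.6 CPM in vehicle libraries (log2 fold change 0.04, SE 0.16, edgeR adjusted p = 0.921). Col6a2 had 33.4, 25.6 and 39.4 CPM in CePPy libraries and 37.1, 26.98 and 27.8 CPM in vehicle libraries (log2 fold change 0.10, SE 0.18, edgeR adjusted p = 0.801). In both genes vehicle library 1 and CePPy library 3 were high and library 2 of either group was low. The difference between the fold changes of Col6a3 and its partners was not tested. The minor beaded chain Col6a4 was at or below 0.533 CPM, and Col6a5 and Col6a6 were too low to be tested, with counts in all 3 CePPy libraries and in 1 vehicle library each.

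Transmembrane collagens were low in level, at no more than 3.2 CPM in any library, and differed in direction. Col13a1 (chr10:61838236-61979108, minus strand), known from neuromuscular junctions and cell adhesion sites, had 1.35, 1.25 and 1.37 CPM in CePPy libraries, against 3.2, 2.09 and 2.17 CPM in vehicle libraries. Every CePPy library was below every vehicle library, and the means were 1.32 ± 0.0635 CPM in CePPy and 2.49 ± 0.621 CPM in vehicle kidneys (SD, n = 3 each; log2 fold change -0.91, SE 0.28, edgeR adjusted p = 0.158). Col17a1, the hemidesmosome collagen of epithelial basal cells, had 0.619, 1.99 and 1.77 CPM in CePPy libraries and 1.78, 0.589 and 0.713 CPM in vehicle libraries (log2 fold change 0.50, SE 0.57, edgeR adjusted p = 0.665). Its high libraries were CePPy 2, CePPy 3 and vehicle 1. Of the urothelial markers, Krt5 had 2.62, 8.96 and 14.3 CPM in CePPy libraries and 16.1, 10.7 and 2.61 CPM in vehicle libraries. The 5 markers summed to 4.61, 15.6 and 30.7 CPM in CePPy libraries and 22.4, 15.6 and 3.3 CPM in vehicle libraries. Krt5 was the only one with a fold below 0 (log2 fold change -0.19). The other 4, Upk1a, Upk1b, Upk2 and Upk3a, had log2 fold changes from 0.85 to 1.29, and all 5 overlapped between groups. No marker of that list was at 0 in all libraries, and its part in Col17a1 was not tested. Col23a1 had 0.928, 0.851 and 1.97 CPM in CePPy libraries and 1.14, 0.765 and 0.594 CPM in vehicle libraries (log2 fold change 0.57, SE 0.46, edgeR adjusted p = 0.53), and Col25a1, known from neurons, was too low to be tested.

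**Figure D4:**
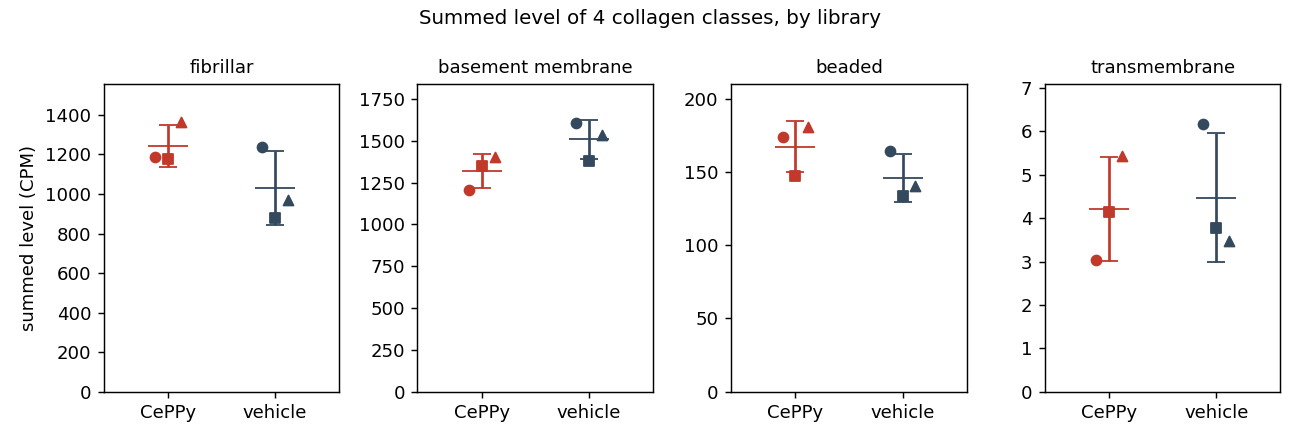
Summed level of the fibrillar, basement membrane, beaded and transmembrane collagens in each library, in CPM, with CePPy left of vehicle, the mean and SD of each group (n = 3 each) and each vertical axis from 0; circles, squares and triangles are replicates 1, 2 and 3. Fibrillar and basement membrane sums both overlap between groups in CPM. The fibrillar sum of vehicle library 1, 1238 CPM, lies above the lowest CePPy sum of 1179 CPM. For basement membrane, 2 of the 3 CePPy sums lie below the lowest vehicle sum of 1381 CPM, and CePPy library 3 lies above it at 1400 CPM.

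Summed over the class, fibrillar collagens had 1187, 1179 and 1365 CPM in CePPy libraries, against 1238, 879 and 971 CPM in vehicle libraries, with vehicle library 1 inside the CePPy range. Basement membrane collagens had 1204, 1347 and 1400 CPM in CePPy libraries and 1608, 1381 and 1533 CPM in vehicle libraries, where the groups overlapped. Beaded collagens had 174, 147 and 181 CPM in CePPy libraries and 164, 133 and 140.5 CPM in vehicle libraries, and transmembrane collagens 3.04, 4.15 and 5.43 CPM in CePPy libraries and 6.18, 3.77 and 3.48 CPM in vehicle libraries. In CPM, no class sum separated the groups for these 4 classes. In TPM, the basement membrane sums did not overlap. They were 346.6, 439.8 and 446.9 TPM in CePPy libraries, against 542.6, 472.1 and 470 TPM in vehicle libraries. As a share of all counts they did not overlap either, at 0.1143, 0.1368 and 0.1411% against 0.1644, 0.142 and 0.1495%. Whether this class sum differs between groups therefore depends on the measure, and it was not tested. The medians of the log2 fold changes were 0.23 for 9 tested fibrillar, 0.16 for 6 basement membrane, 0.08 for 4 beaded and 0.50 for 3 transmembrane genes. These medians moved when single libraries were left out. Without CePPy library 3 the basement membrane median was -0.025 and the beaded median -0.061, and with any one library left out the fibrillar median ran from 0.13 to 0.388 and the transmembrane median from 0.08 to 0.651.

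The tested fibril-associated collagens differed in direction. Col14a1, a fibril-associated collagen of dense connective tissue, had 47.5, 35.4 and 39.9 CPM in CePPy libraries 1 to 3, against 34.4, 25.9 and 29.8 CPM in vehicle libraries 1 to 3. All CePPy libraries were above all vehicle libraries (log2 fold change 0.45, SE 0.14, edgeR adjusted p = 0.166). Col12a1, which also coats type I fibrils, had 12.01, 15.9 and 16.4 CPM in CePPy libraries and 29.1, 14.7 and 20.8 CPM in vehicle libraries, with overlap (log2 fold change -0.54, SE 0.24, edgeR adjusted p = 0.275). Col16a1, a minor collagen of fibril surfaces, had a log2 fold change of 0.15 and Col20a1, below 1.5 CPM in all libraries, of 1.16. Col9a2, Col9a3 and Col19a1 were too low to be tested.

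The basement membrane proteoglycans Col18a1 and Col15a1 differed in direction. Col18a1 had 289.8, 413 and 424 CPM in CePPy libraries, against 456, 447 and 462 CPM in vehicle libraries, with CePPy library 1 far below the rest and all CePPy libraries below vehicle (log2 fold change -0.28, SE 0.14, edgeR adjusted p = 0.339). Without CePPy library 1 its log2 fold change was -0.12. Col15a1 had 101, 101 and 103 CPM in CePPy libraries and 91.6, 77.6 and 98.7 CPM in vehicle libraries, with all CePPy libraries above vehicle (log2 fold change 0.19, SE 0.10, edgeR adjusted p = 0.339). Col8a1, a vessel wall collagen, had a log2 fold change of -0.22 with overlapping groups. Col7a1, of the anchoring fibrils of skin, had 0.647, 1.99 and 2.27 CPM in CePPy libraries and 1.78, 1.5 and 1.07 CPM in vehicle libraries. Col26a1 had 2.48, 3.4 and 4.23 CPM in CePPy libraries and 1.002, 2.85 and 1.25 CPM in vehicle libraries (log2 fold change 0.98, SE 0.42, edgeR adjusted p = 0.26). Col8a2, Col10a1 and Col28a1 stayed below 0.3 CPM in all libraries and were not tested.

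The genes that make, process and bind collagen showed no call either. Of 53 listed genes 49 were tested and 0 passed edgeR's adjusted threshold, against 0.00649% of all genes tested. The fold was above 0 for 23 of 49 (46.9%) and the median log2 fold change was -0.005, and between 0.004 and 0.087 with each library left out in turn. The groups did not overlap for 14 (28.6%), 6 higher and 8 lower, against 26.3% of all genes tested. DESeq2 called 3 of 49, all higher, against 3.42% of all genes it tested in that direction. By step, the fold was above 0 for 7 of 14 genes of hydroxylation and glycosylation, 3 of 8 of folding and export, 2 of 6 of propeptide processing, 1 of 5 of crosslinking, 6 of 7 fibril-binding proteoglycans and proteins and 4 of 9 receptors. The median log2 fold changes of these steps were 0.04, -0.05, -0.04, -0.17, 0.33 and -0.08 in the same order.

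Of these, P3h2, a prolyl 3-hydroxylase that acts on type IV collagen among others, had the lowest p of the list. It had 148, 102 and 139.8 CPM in CePPy libraries 1 to 3, against 61.9, 82.6 and 68.1 CPM in vehicle libraries 1 to 3, with all CePPy libraries above vehicle (log2 fold change 0.88, SE 0.16, edgeR adjusted p = 0.0907). Pcolce, which speeds removal of the C-terminal propeptide of fibrillar procollagens, had 141, 93.9 and 120.1 CPM in CePPy libraries and 81.4, 76.8 and 71.5 CPM in vehicle libraries (log2 fold change 0.63, SE 0.14, edgeR adjusted p = 0.113). Dcn, the fibril-binding proteoglycan decorin, had 62.97, 35.2 and 55.2 CPM in CePPy libraries and 32.2, 26.9 and 23.7 CPM in vehicle libraries (log2 fold change 0.89, SE 0.21, edgeR adjusted p = 0.117). The groups did not overlap for any of these 3 genes, which were also the 3 called by DESeq2. Crtap, a partner of the prolyl 3-hydroxylase P3h1, was lower in every CePPy library, at 68.3, 71.02 and 65.2 CPM against 92.1, 81.6 and 78.2 CPM in vehicle libraries (log2 fold change -0.30, SE 0.09, edgeR adjusted p = 0.147).

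None of the core maturation genes passed the test. Serpinh1, the collagen chaperone HSP47, had 369.6, 369 and 363 CPM in CePPy libraries and 444, 387 and 373 CPM in vehicle libraries (log2 fold change -0.13, SE 0.09, edgeR adjusted p = 0.486). P4ha1, the catalytic subunit of prolyl 4-hydroxylase, had a log2 fold change of -0.01 with SE 0.09. Plod2, the lysyl hydroxylase of collagen telopeptides, had -0.19, Bmp1, the procollagen C-proteinase, -0.06 and Lox, a crosslinking oxidase, -0.38 on the same log2 scale, with edgeR adjusted p from 0.303 to 0.844. The value for Lox was -0.06 without CePPy library 1 and -0.744 without CePPy library 3, and that for Serpinh1 was -0.05 without vehicle library 1. A p above the threshold does not show that these genes were equal. The collagen receptors Ddr2 and the integrin subunit Itga1 had log2 fold changes of 0.45 and 0.23, with edgeR adjusted p = 0.173 and 0.193.

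**Figure D5:**
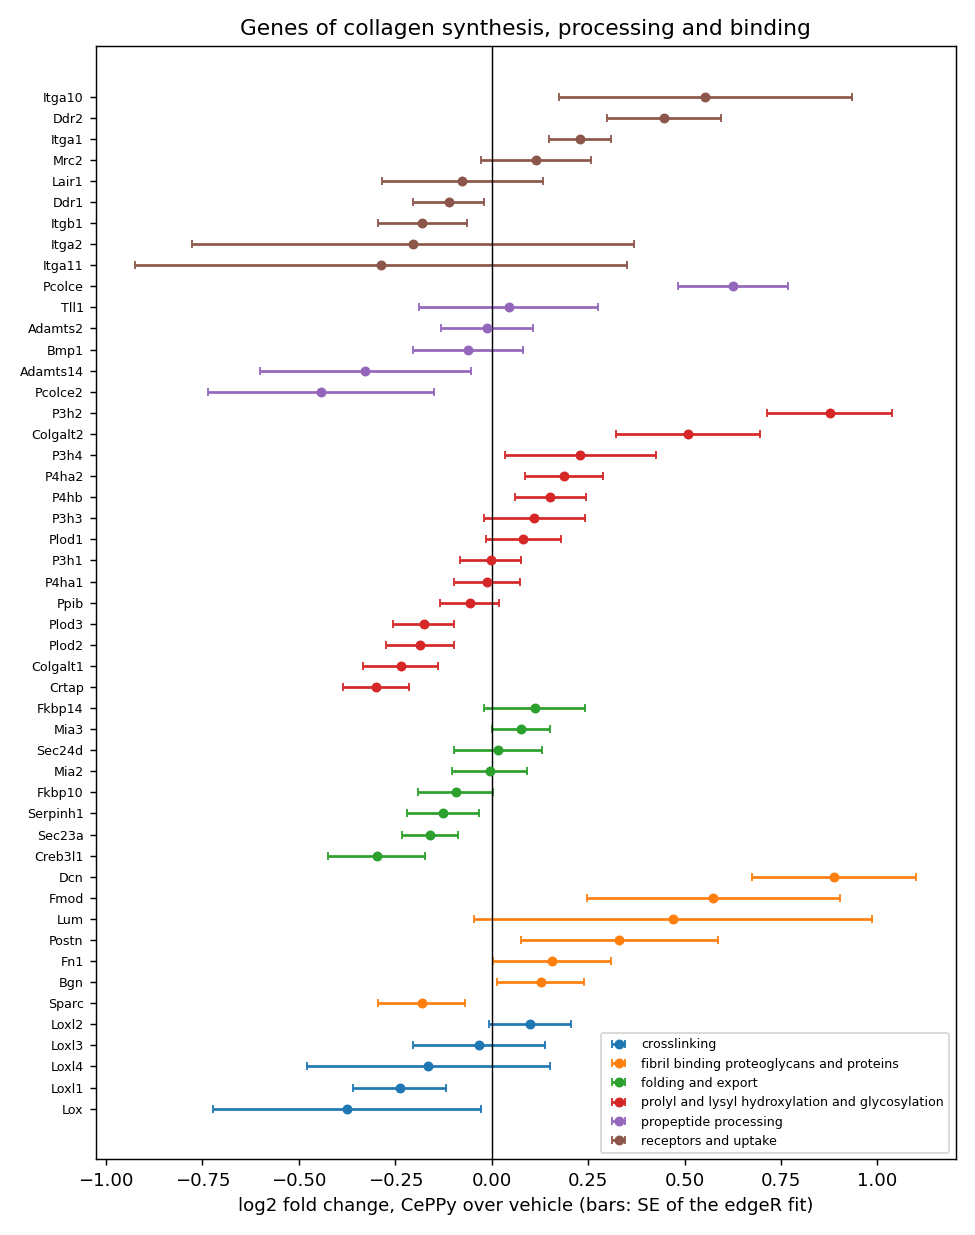
Log2 fold change, CePPy over vehicle, of the tested collagen pathway genes by step, with bars of 1 SE derived from edgeR's test statistic (3 libraries per group). P3h2 at 0.88 and Dcn at 0.89 are the highest values, and no gene reached an adjusted p under 0.05.

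Across all the marker lists no marker passed the edgeR threshold, but calls were made under the alternatives that also called collagens. DESeq2 called 2 of 5 smooth muscle markers lower, and 2 of 6 proximal tubule, 2 of 3 thick ascending limb, 2 of 4 collecting duct and 1 of 7 fibroblast and pericyte markers higher. Of all genes it tested, DESeq2 called 6.63% in either direction and 3.42% higher. Without CePPy library 2, edgeR called 5 proximal tubule, 2 thick ascending limb and 2 collecting duct markers higher and 1 smooth muscle marker lower, against 5.17% of all genes tested in either direction. Acta2, an actin of smooth muscle and myofibroblasts, had 105, 124 and 137 CPM in CePPy libraries, against 265, 195 and 173 CPM in vehicle libraries (log2 fold change -0.79, SE 0.17, edgeR adjusted p = 0.104). Tagln had 104, 115 and 118 CPM in CePPy libraries, against 222, 193 and 170.4 CPM in vehicle libraries (log2 fold change -0.80, SE 0.11, edgeR adjusted p = 0.0739). Both genes were lower in every CePPy library than in any vehicle library. Fibroblast and pericyte markers, from cells that make most interstitial collagen, summed to 196, 184 and 208 CPM in CePPy libraries and 213, 168 and 174 CPM in vehicle libraries, with vehicle library 1 highest. Their fold was above 0 for 5 of 7 and below 0 for 2, Cspg4 and Pdgfrb. Only Dpt did not overlap, at 18.9, 7.95 and 9.7 CPM in CePPy libraries against 3.84, 6.65 and 5.08 CPM in vehicle libraries. Its log2 fold change was 1.23 (edgeR adjusted p = 0.144). Thick ascending limb markers summed to 3328 to 5872 CPM in CePPy libraries and 2580 to 2888 CPM in vehicle libraries. Collecting duct markers summed to 307, 262 and 381 CPM in CePPy libraries and 204, 226 and 166 CPM in vehicle libraries. Both tubule sums were higher in every CePPy library. Macrophage markers summed to 108, 89.02 and 94.4 CPM in CePPy libraries and 106, 104 and 94.5 CPM in vehicle libraries, and adrenal cortex markers to 3.63, 5.26 and 4.27 CPM in CePPy libraries and 6.12, 5.86 and 4.78 CPM in vehicle libraries. Adipocyte markers stayed at or below 6.67 CPM and skeletal muscle markers at or below 0.4 CPM in all libraries. The part of these lists in the collagen values was not tested.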

How the data were processed

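Per the labels' protocols, RNA was isolated with TRIzol, and 2 µg went into a Yeasen Hieff NGS Ultima dual-mode mRNA kit. The authors deposited raw read counts for 25031 genes. Per the submitters' processing notes, TopHat2, Cufflinks and DESeq were used with GRCm38, but no source used here names the counting program, strand setting or annotation. Reads of overlapping genes may be mixed.

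Groups came from the sample titles. Counts were filtered with filterByExpr (15416 genes), scaled by TMM, and tested with edgeR 4.0.16 (R 4.3.3), with Benjamini-Hochberg adjustment over all genes and 4 residual degrees of freedom. CPM, TPM and folds were computed from these counts. The SE of a log2 fold change was derived as its absolute value over the square root of edgeR's F statistic. It therefore carries the same information as the p-value. Alternatives were DESeq2 1.42.0, limma-voom 3.58.1, other scalings, filters, a replicate block and each library left out. Gene coordinates are GENCODE M21. The named genes are those called, the 3 highest in level per class, the 6 lowest in p, and, of the pathway, the 6 lowest in p and 5 chosen by name. The collagen, pathway and marker lists were chosen with earlier results of these data known. An exact permutation test of 3 against 3 libraries cannot go below p = 0.1.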

Additional observations from a re-analysis of the deposited data

How the results depend on the processing

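Which genes passed the threshold depended on the tool and on CePPy library 2. Over all genes edgeR called 1, DESeq2 993, edgeR with no filter on low counts 63, and edgeR with each library left out 0 to 811, with 811 without CePPy library 2. Collagens called were 0 in the edgeR fit, 2 by DESeq2 and 0 to 2 with a library left out, the 2 without CePPy library 2 being Col27a1 and Col4a4. Collagen pathway genes called were 0, 3 by DESeq2 and 0 to 3 with a library left out. The cause was not tested.

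With the replicate block, 0 genes, 0 collagens and 0 pathway genes were called. Same-numbered libraries did not deviate together (correlations of deviations from the group means of -0.15, 0.098 and -0.021), so the numbers were taken as names. The log2 fold change of Col7a1 was 0.168 by edgeR and -0.014 under limma-voom, and ran from -0.129 to 0.553 with a library left out. With a library left out the sign also turned for Col6a1 (-0.072 to 0.183), Col6a2 (-0.052 to 0.259), P4ha1 (-0.068 to 0.055) and Bmp1 (-0.148 to 0.089). Other collagen folds that moved by over 1.5 times with a library left out kept their sign, among them Col4a3 (0.09 to 0.366), Col17a1 (0.202 to 1.159), Col23a1 (0.095 to 0.866), Col16a1 (0.066 to 0.281), Col12a1 (-0.755 to -0.265) and Col8a1 (-0.371 to -0.062). None of the other genes among the 33 named by rule changed sign under the alternatives run. The count of collagens with no overlap between groups, recomputed on library totals and DESeq2 size factors after seeing the data, stayed within 1.5 times of 10. Genes below about 1 CPM, among them Col11a2 and Col6a4, rest on few counts and are limited by depth.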
